A study of Gallus gallus with 10 samples.

Results

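SOCS3, STAT3, STAT6 and IL2RG are the 4 genes of JAK-STAT signaling that are described here, out of 11324 genes in the counts. They were taken by their Ensembl identifiers (ENSGALG00000027786, ENSGALG00000003267, ENSGALG00000029530 and ENSGALG00000005638), and all 4 passed the filter on low counts that left 8585 genes. The genes were chosen because they were higher after the mimic in these same libraries, so their differences between the groups are given as a description and support nothing. RNA came from whole lysate of the preoptic anterior hypothalamus (PO/AH) of Cobb strain broiler chicks, with 5 naïve libraries and 5 made 6 h after injection of the hsa-miR-200a-3p mimic, a synthetic copy of the mature microRNA, at 3 days of age. The naïve chicks were of the same age and were not injected, and no library from chicks given a control mimic was analysed here, so injection and mimic cannot be told apart. The site of injection is the PO/AH in the sample labels and the third ventricle in the paper's results, and whether each library held the RNA of 1 chick is not given. If libraries share a chick, the p-values measure only the spread between these libraries.

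In JAK-STAT signaling a cytokine joins its receptor chains at the cell surface, the Janus kinases bound to those chains phosphorylate each other and the receptor, and STAT proteins that dock there are phosphorylated, pair and enter the nucleus as transcription factors. The following roles are known mainly from mammals. IL2RG is the common gamma chain, a receptor subunit shared by interleukin-2, interleukin-4 and several related cytokines. STAT3 carries the signal of the interleukin-6 family and of leptin, and STAT6 that of interleukin-4 and interleukin-13. SOCS3 is a target gene of STAT3 whose product binds receptor and kinase and shuts the signal down, which makes it the feedback inhibitor of the group. In brain tissue the pathway is known from microglia, astrocytes and hypothalamic neurons.

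Each library was counted by bulk MARS-seq, in which transcripts are tagged near their 3′ end with a unique molecular identifier (UMI), and copies of 1 molecule made by amplification are counted once. The totals were 2104121 to 5503185 UMIs in naïve libraries and 3598695 to 4511597 in mimic libraries. Library numbers are those of the deposited columns, naïve 2, 3, 4, 6 and 7 and mimic 2, 4, 6, 9 and 10. Naïve library 7 had the smallest total, 2104121. Levels are CPM, counts scaled to library size with TMM factors, and intervals on a single library are exact 95% Poisson intervals that cover counting error only. The counts begin at the 3′ end, so isoforms of STAT3 or STAT6 cannot be told apart. The median log2 fold change over all genes tested was −0.0042. The summed level of the neuronal markers RBFOX3 and SCG3, 2 of 5 looked for, was 310 to 337 CPM in naïve and 239 to 305 CPM in mimic libraries. The log2 fold change was −0.45 for RBFOX3 and −0.10 for SCG3, and the groups overlapped for each gene alone. The part of this sum in the values below was not tested.

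The receptor subunit IL2RG was higher on average after the mimic, with 1 mimic library inside the naïve range. Naïve libraries 2, 3, 4, 6 and 7 held 6.30, 6.29, 7.98, 9.79 and 12.6 CPM of IL2RG. Mimic libraries 2, 4, 6, 9 and 10 held 22.9, 9.89, 25.5, 15.2 and 15.8 CPM. The groups overlapped, since mimic library 4 lay below naïve library 7 and close to naïve library 6, and the other 4 mimic libraries lay above every naïve library. IL2RG averaged 8.60 ± 2.68 CPM in naïve and 17.9 ± 6.31 CPM in mimic libraries (SD, n = 5 each), a fitted fold change of 2.14. On the log2 scale this was 1.10 (SE 0.27), with an adjusted p of 0.229 by edgeR's quasi-likelihood test with Benjamini-Hochberg adjustment over all 8585 genes. Counts were modest, from 25 to 51 UMIs in naïve and from 38 to 113 in mimic libraries. Without naïve library 7 the naïve maximum was 9.79 CPM, and all 5 mimic libraries then lay above it, mimic library 4 by a ratio of 1.01.

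STAT3 was higher in every mimic library than in every naïve library. Its levels were 47.4, 49.6, 55.3, 44.9 and 73.8 CPM in naïve libraries 2, 3, 4, 6 and 7. In mimic libraries 2, 4, 6, 9 and 10 they were 119, 80.7, 97.2, 84.3 and 80.1 CPM. Naïve library 7 stood well above the other 4 naïve libraries and mimic library 2 above the other 4 mimic libraries, and the groups came closest between naïve library 7 and mimic library 10. The 95% intervals of those closest libraries, 62.3 to 86.8 and 71.4 to 89.5 CPM, overlapped across the gap of 6.30 CPM between the groups. STAT3 averaged 54.2 ± 11.6 CPM in naïve and 92.3 ± 16.5 CPM after the mimic (SD, n = 5 each), a log2 fold change of 0.78 (SE 0.16) and an adjusted p of 0.0688 by edgeR's quasi-likelihood test. Without naïve library 7 the naïve mean was 49.3 ± 4.45 CPM (SD, n = 4), the log2 fold change 0.91 and the adjusted p 0.0137 by the same edgeR test, so that this library decided the side of the 0.05 threshold. Without any other single library the adjusted p lay above 0.05, up to 0.252 (edgeR). STAT3 was the most deeply counted of the 4 genes, with 146 to 430 UMIs per library.

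STAT6, the factor of interleukin-4 and interleukin-13, also had groups that did not overlap. Naïve libraries 2, 3, 4, 6 and 7 held 14.8, 12.1, 14.4, 16.9 and 12.6 CPM. Mimic libraries 2, 4, 6, 9 and 10 held 33.5, 19.8, 23.3, 29.5 and 23.5 CPM. The naïve libraries were close to each other, with a ratio of 1.40 from lowest to highest, and naïve library 7 was among the low ones here, in contrast to its place for the other 3 genes. In the mimic group libraries 2 and 9 were high and library 4 was low. The groups came closest between naïve library 6 and mimic library 4. The 95% intervals of those libraries, 13.5 to 20.8 and 15.6 to 24.7 CPM, overlapped. STAT6 averaged 14.1 ± 1.91 CPM in naïve and 25.9 ± 5.49 CPM in mimic libraries (SD, n = 5 each), a log2 fold change of 0.86 (SE 0.18) with an adjusted p of 0.0688 by edgeR's quasi-likelihood test. Without mimic library 4 the adjusted p was 0.0451 by the same edgeR test and the log2 fold change 0.95, and without any other single library it lay above 0.05, up to 0.292 without naïve library 3.

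SOCS3, the feedback inhibitor, had the second largest absolute log2 fold change of the 8585 genes and the widest spread of the 4. It was low in all naïve libraries, at 1.08, 1.57, 2.13, 1.73 and 5.05 CPM in libraries 2, 3, 4, 6 and 7, which rested on 6 to 10 UMIs each. The mimic libraries 2, 4, 6, 9 and 10 held 60.3, 9.37, 28.7, 5.30 and 40.6 CPM, from 216, 36, 127, 23 and 157 UMIs. The mimic libraries fell into high values in libraries 2, 6 and 10 and low values in libraries 4 and 9, and the lowest of them lay only 0.245 CPM above naïve library 7. With 95% intervals of 2.42 to 9.29 CPM for naïve library 7 and 3.36 to 7.95 CPM for mimic library 9, these 2 libraries were not distinguishable at this depth. The levels over the naïve mean were 26.1-fold in mimic library 2, 17.5-fold in 10, 12.4-fold in 6, 4.05-fold in 4 and 2.29-fold in 9. SOCS3 averaged 2.31 ± 1.58 CPM in naïve and 28.8 ± 22.7 CPM in mimic libraries (SD, n = 5 each), a log2 fold change of 3.83 (SE 0.71) and an adjusted p of 0.0688 by edgeR's quasi-likelihood test. The adjusted p was 0.0292 without mimic library 4 and 0.0133 without mimic library 9, the libraries with the lowest SOCS3 of their group, and it lay above 0.05 without any other single library, up to 0.296 without naïve library 3 (edgeR's quasi-likelihood test). Naïve library 7 raised the naïve mean, which was 1.63 ± 0.43 CPM (SD, n = 4) without it.

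**Figure D1:**
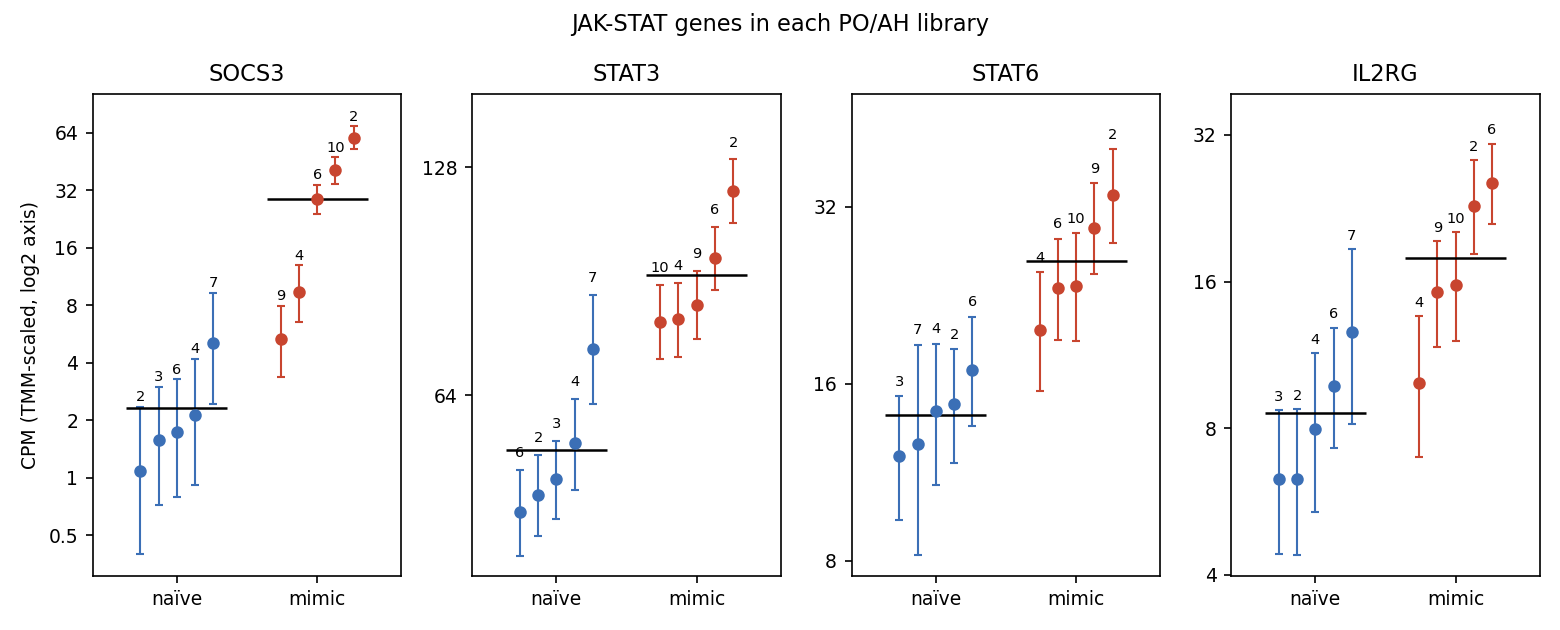
Level of each gene in each library, in CPM on a log2 axis. Each point is a library with its deposited number, bars are exact 95% Poisson intervals (counting error only) and black lines are group means. The mimic libraries (red) lie above all naïve libraries (blue) for SOCS3, STAT3 and STAT6, while IL2RG in mimic library 4 (9.89 CPM) lies below naïve library 7 (12.6 CPM).

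None of the 4 genes was called by edgeR's quasi-likelihood test, where a call asks for a fold change of at least 1.5, at least 30 UMIs in the highest library and an adjusted p no larger than 0.05. Over all genes tested, the same test called 0.14% as higher after the mimic, 12 of 8585, and 0.0233% as lower. The unadjusted p of each of the 4 was below 0.05, which held for 640 genes in either direction (7.45%), and their places in the order of p were 25 for SOCS3, 23 for STAT3, 26 for STAT6 and 45 for IL2RG. The adjusted p of 0.0688 is the same for SOCS3, STAT3 and STAT6 because neighbouring p-values share a value in the Benjamini-Hochberg adjustment. DESeq2 at the settings of the study, but run on the 8585 filtered genes, called all 4. Its adjusted p was 8.67e-05 for SOCS3, 0.00128 for STAT3, 0.00320 for STAT6 and 0.0329 for IL2RG. It called 0.419% of all genes as higher and 0.0582% as lower. limma-voom called none of the 4, with adjusted p of 0.237, 0.0521, 0.0992 and 0.285 in the same order, and called 0.128% of all genes as higher. SOCS3, STAT3 and STAT6 were 3 of the 94 genes (1.09%) whose mimic libraries were all above all naïve libraries, and 0.501% of genes had them all below. Because the genes were chosen on this contrast, nothing is read from these counts.

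The spread within groups separated SOCS3 from the others. Its biological coefficient of variation, the spread between libraries of a group beyond counting error, was 63.5%, higher than in 99.14% of the genes tested. The same measure was 27.8% for IL2RG, 18.3% for STAT6 and 17.9% for STAT3, where the median over all genes was 19.4%. Within the mimic group the highest library exceeded the lowest by 11.4 times for SOCS3, 2.58 times for IL2RG, 1.69 times for STAT6 and 1.49 times for STAT3. SOCS3 thus combined a change of 14.3-fold with a spread that few genes had, while the STAT genes combined changes of 1.72-fold and 1.82-fold with a spread near the median.

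**Figure D2:**
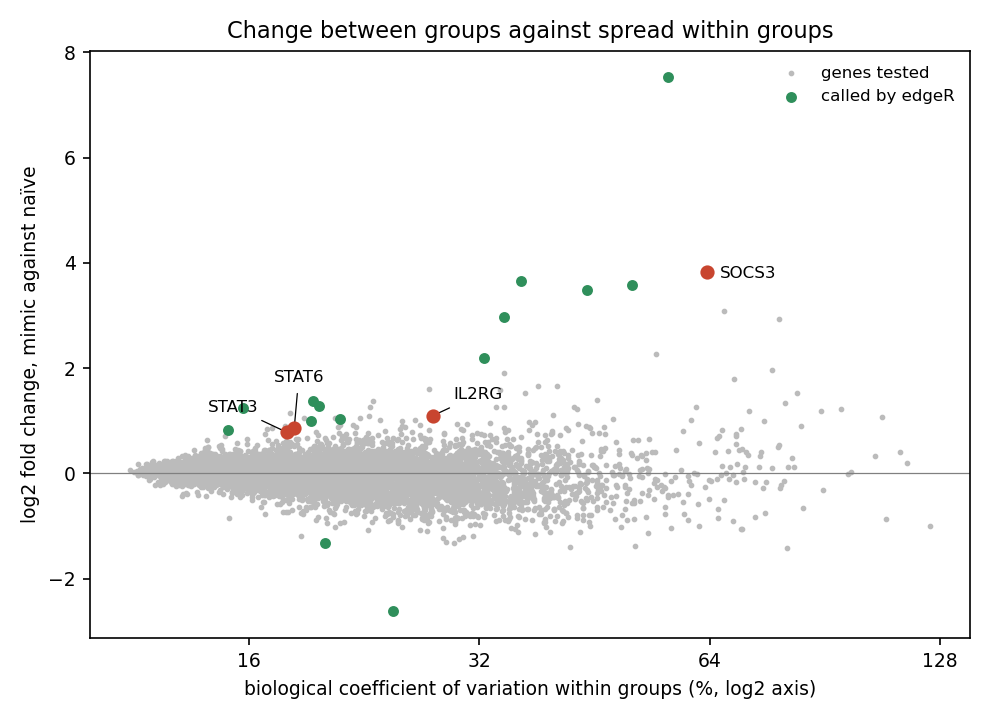
Log2 fold change (mimic against naïve) against the biological coefficient of variation within groups (percent, log2 axis) for the genes tested in grey, genes called by edgeR in green and the 4 genes in red. SOCS3 lies at 63.5% and 3.83, and STAT3, STAT6 and IL2RG lie between 17.9% and 27.8% with log2 fold changes of 0.78 to 1.10.

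The direction of all 4 genes was the same in every setting tried, and the settings differed in which of them passed the threshold. Log2 fold changes ranged from 3.35 to 4.15 for SOCS3, 0.68 to 0.91 for STAT3, 0.76 to 0.95 for STAT6 and 0.93 to 1.25 for IL2RG. IL2RG passed the adjusted threshold in 3 of 18 alternatives, both DESeq2 fits and edgeR's likelihood ratio test. Leaving out single libraries moved its adjusted p between 0.0836 and 0.586 (edgeR). STAT3 and STAT6 each passed in 4 of 18 alternatives and SOCS3 in 5 of 17.

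**Figure D3:**
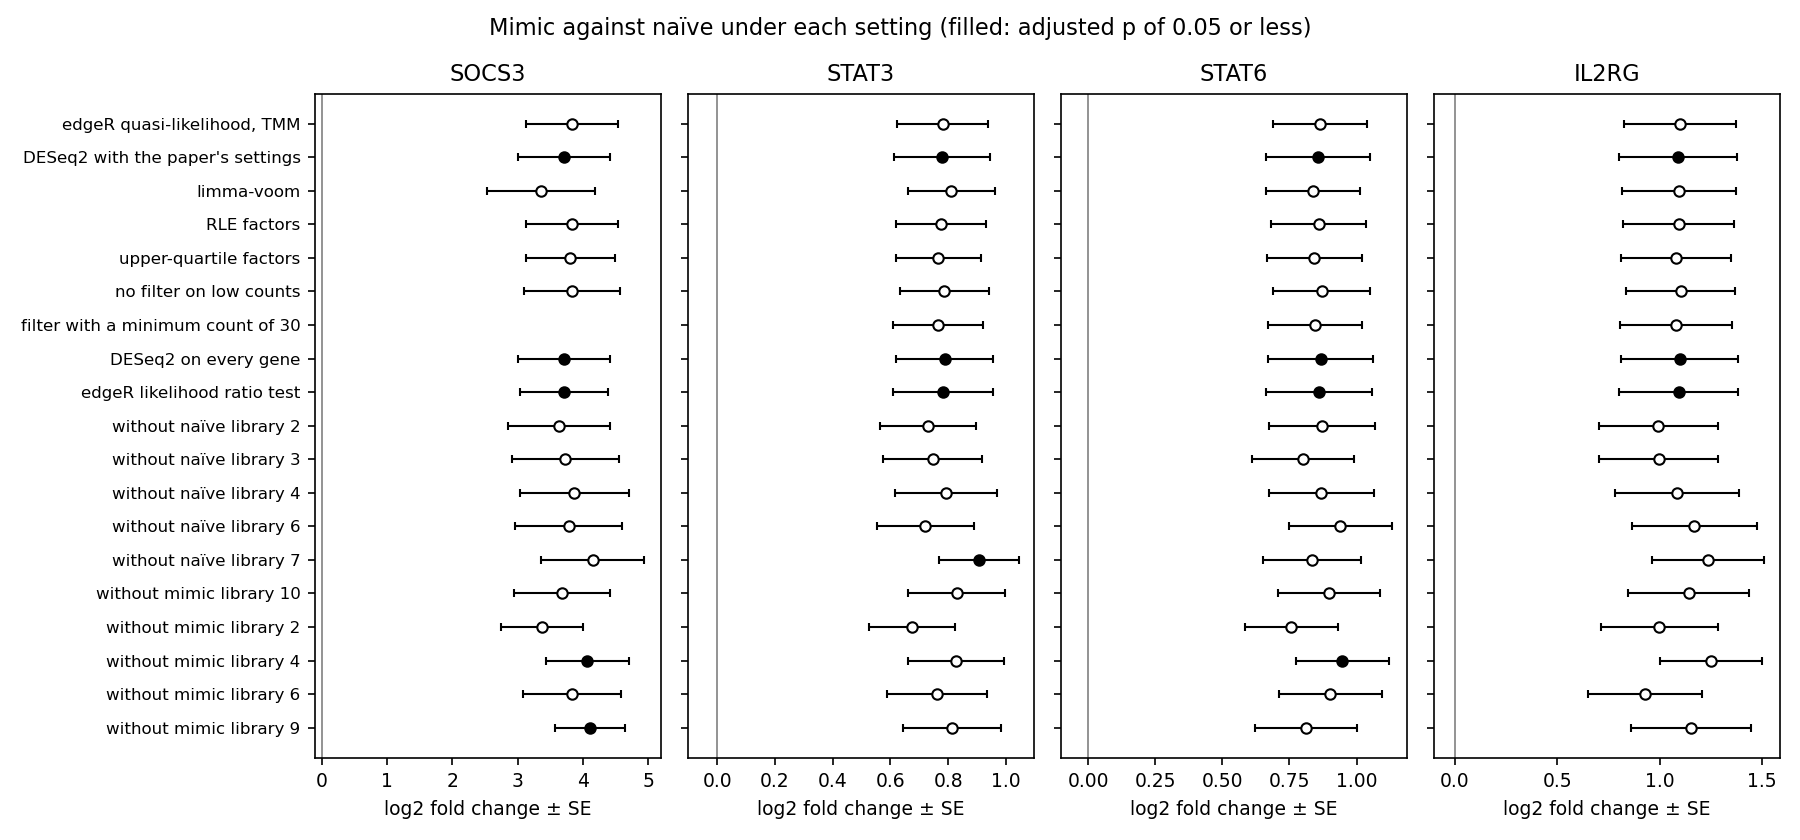
Log2 fold change ± SE of each gene under every test, normalization, filter and left-out library, with filled points at an adjusted p of 0.05 or less. The points stay to the right of 0 in all 4 panels, and IL2RG is filled only for DESeq2 and the edgeR likelihood ratio test. SOCS3 has no point for the filter with a minimum count of 30, which removed it. For edgeR fits the SE is the absolute log2 fold change divided by the square root of the test statistic.

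The feedback gene was then related to the receptor and the factors across libraries of the same group. This measure removes the difference that chose the genes, since each gene is centred on its group mean (log2 CPM, prior count 2), and it was tested by an exact permutation test over 14400 rearrangements of libraries within groups, two-sided, for the 6 pairs of genes. SOCS3 and STAT3 varied together with Pearson's r of 0.670 (exact permutation p = 0.0348, adjusted p = 0.104) and Spearman's rho of 0.527 (exact permutation p = 0.135, adjusted p = 0.271) over 10 libraries. SOCS3 and IL2RG gave r of 0.687 (exact permutation p = 0.0597, adjusted p = 0.119) and rho of 0.758 (exact permutation p = 0.0286, adjusted p = 0.172). Neither relation passed after adjustment over the 6 pairs. With library totals in place of TMM factors, r was 0.604 for STAT3 (exact permutation p = 0.0910) and 0.660 for IL2RG (exact permutation p = 0.0902). The naïve levels of SOCS3 rest on 6 to 10 UMIs per library, so counting error is part of their deviations.

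Naïve library 7 and mimic library 2 were high in both genes of each of these relations. Mimic library 6 was also high in SOCS3 and IL2RG. It deviated from its group mean by 0.471 for SOCS3, 0.579 for IL2RG and 0.0909 for STAT3 (log2 CPM). Mimic libraries 2 and 9 were the 2 libraries whose centred SOCS3 lay farthest from its median. Without them r was 0.653 for STAT3 (exact permutation p = 0.0986) and 0.786 for IL2RG (exact permutation p = 0.0639). Without naïve library 7, r was 0.595 for STAT3 (exact permutation p = 0.223) and 0.616 for IL2RG (exact permutation p = 0.210). Without mimic library 2, r was 0.521 for STAT3 (exact permutation p = 0.100) and 0.630 for IL2RG (exact permutation p = 0.124). Naïve library 7 and mimic library 2 were not left out together for these relations, so their joint part in r was not tested. Mimic library 10 stood against the relation with STAT3, being the second highest for SOCS3 and the lowest of its group for STAT3. Without it r was 0.847 (exact permutation, adjusted p = 0.0333), the only setting in which a relation of SOCS3 passed after adjustment.

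SOCS3 and STAT6 showed no such relation at this number of libraries. Pearson's r was 0.103 (exact permutation p = 0.813, adjusted p = 0.813) and Spearman's rho 0.152 (exact permutation p = 0.722, adjusted p = 0.846). Mimic library 9 was the lowest of its group for SOCS3 and the second highest for STAT6. Without both mimic libraries 2 and 9, r was 0.103 (exact permutation p = 0.799). Leaving out single libraries, r was negative without mimic library 2 (−0.351) or mimic library 4 (−0.155). It was 0.452 without mimic library 9 (exact permutation, adjusted p = 0.393).

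Between the receptor and the factors, IL2RG and STAT3 gave r of 0.702 (exact permutation p = 0.0337, adjusted p = 0.104) and rho of 0.552 (exact permutation p = 0.121, adjusted p = 0.271). Without naïve library 7 and mimic library 2, whose centred STAT3 lay farthest from its median, r was 0.469 (exact permutation p = 0.276). The relation thus rested in part on those libraries. Without naïve library 6, r was 0.846 (exact permutation, adjusted p = 0.05). IL2RG and STAT6 gave r of 0.389 (exact permutation p = 0.332, adjusted p = 0.498) with rho of 0.321 (exact permutation p = 0.412, adjusted p = 0.618). Without mimic libraries 2 and 4 that r was −0.142 (exact permutation p = 0.779). STAT3 and STAT6 gave r of 0.150 (exact permutation p = 0.685, adjusted p = 0.813) and rho of −0.08 (exact permutation p = 0.846, adjusted p = 0.846), and r of −0.140 without naïve library 7 and mimic library 2 (exact permutation p = 0.760). Among all other genes tested, ordered by the same centred r with SOCS3, IL2RG was in place 413, STAT3 in place 473 and STAT6 in place 3786 of 8584.

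**Figure D4:**
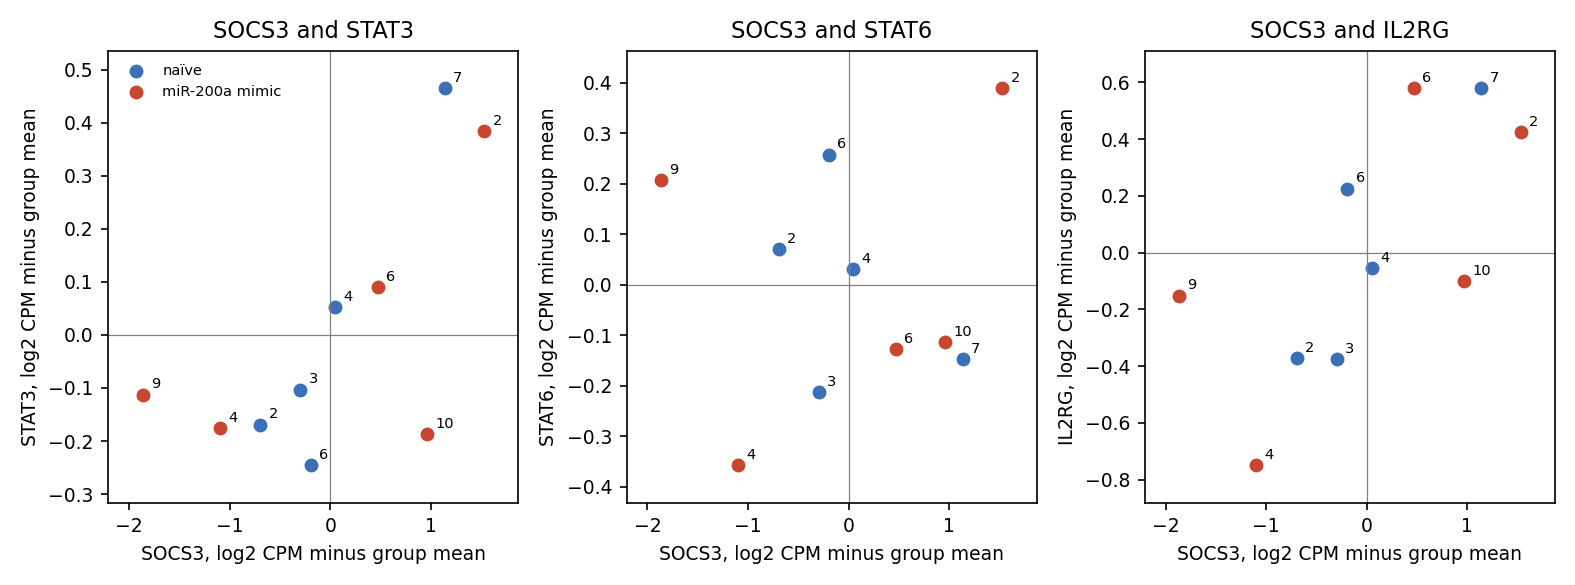
Deviation of each library from its group mean (log2 CPM) for SOCS3 on the x axis and STAT3, STAT6 or IL2RG on the y axis, with naïve libraries in blue and mimic libraries in red. Naïve library 7 and mimic library 2 are at the upper right for STAT3 and IL2RG (r = 0.670 and 0.687). Mimic library 6 is also at the upper right for IL2RG. The STAT6 panel shows no trend (r = 0.103).

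The balance of inhibitor to factor differed most from library to library in the mimic group. The log2 ratio of SOCS3 to STAT3 counts (pseudocount 0.5) was −5.34, −4.90, −4.62, −4.63 and −3.80 in naïve libraries 2, 3, 4, 6 and 7. It was −0.98, −3.09, −1.76, −3.96 and −0.98 in mimic libraries 2, 4, 6, 9 and 10. Mimic libraries 2 and 10 shared nearly the same ratio although STAT3 differed between them, and mimic library 9 lay below naïve library 7, so the groups overlapped on this ratio. The mean ratio was −4.66 ± 0.56 in naïve and −2.15 ± 1.33 in mimic libraries (SD, n = 5 each), a difference of 2.50. The log2 ratio of STAT6 to STAT3 differed by 0.08 between the group means, and that of IL2RG to STAT3 by 0.25, both less than the SD within either group. No test was made of these ratios, since both of their genes were chosen on this contrast.

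The genes whose levels followed each of the 4 most closely across all 10 libraries are given by Pearson's r of log2 CPM among the 120 other tested genes with a name, as a description. All of the genes named for this likeness were selected by the study on these libraries as higher after the mimic, so the difference between groups is part of each r. SOCS3 was most like SPI1 (r = 0.971), the transcription factor of myeloid cells and microglia, which was also the closest of all 8584 genes. It was followed by IFITM5 (0.926), TGM4 (0.925), a transglutaminase gene, ITGB1BP3 (0.924) and TAP2 (0.910), a subunit of the peptide transporter of antigen presentation. STAT3 was in place 11 of 8584 for SOCS3, IL2RG in place 22 and STAT6 in place 135.

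STAT3 was most like LCN15 (r = 0.964), a lipocalin gene, then C1QC (0.937), which encodes a chain of complement C1q, TGM4 (0.934), cPAD2 (0.930) and KLF2 (0.929), a zinc finger transcription factor. LCN15, like STAT3, was highest of the naïve libraries in library 7, at 83.4 CPM where the other 4 held 12.2 to 29.5 CPM. IL2RG was most like C1QC (0.950) and C1QA (0.948), followed by HSPA8 (0.927), a constitutive heat shock protein, ARPC1B (0.926), a subunit of the actin-nucleating complex, and LCN15 (0.923). STAT6 had a different set, led by BAG3 (0.950), a co-chaperone of HSP70, TGM2 (0.934), FTH1 (0.919), the ferritin heavy chain, C1S (0.904) and AVD (0.903). The other 3 genes were in places 69 to 90 for STAT6, whereas SOCS3, STAT3 and IL2RG were in places 11 to 27 for one another. By the centred r, which removes the difference between groups, these 3 were in places 413 to 930 of 8584 for one another. STAT6 was in places 1918 to 3786 for them.

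The summed marker RNA of microglia was higher in the mimic libraries, where the 4 genes were also higher on average. Of 12 microglial and macrophage markers, 6 had a name in the sources used here, and none of these was at 0 in any library. SPI1, P2RY13, C1QA, C1QB and C1QC were higher in every mimic library than in every naïve library, and TREM2 was lower in every mimic library, where 1.09% and 0.501% of all genes did so. All 6 have a name because the study listed them as changed in these libraries, so their counts are not independent evidence of direction. Their summed level was 81.2, 80.2, 116, 108 and 116 CPM in naïve libraries 2, 3, 4, 6 and 7. In mimic libraries 2, 4, 6, 9 and 10 it was 204, 159, 221, 158 and 175 CPM. The sum is weighted to C1QA, C1QB and C1QC, which averaged 41.9, 46.6 and 49.4 CPM in mimic libraries. SPI1, P2RY13 and TREM2 averaged 14.4, 21.4 and 9.70 CPM there. C1QC and C1QA were also the genes most like IL2RG above, so IL2RG against this sum is not a separate result. SPI1, also in the sum, was the gene most like SOCS3 above, so SOCS3 against this sum is not fully separate either. Mimic libraries 2 and 6, the highest for IL2RG, were also the highest for the markers. Mimic libraries 4 and 9, the lowest for SOCS3, were the lowest for the markers. Other orders differed. Mimic library 9, lowest for the markers, was the second highest of its group for STAT6 (29.5 CPM). Mimic library 6, highest for the markers, was in place 3 of its group for SOCS3 (28.7 CPM) and place 4 for STAT6 (23.3 CPM). In bulk tissue, more cells of a type and more RNA per cell cannot be told apart, and the part of microglia in the levels of the 4 genes was not tested. The choroid plexus and meningeal markers with a name were FOLR1 and SLC6A13, 2 of 5, and both were below the filter. Both have a name because the study listed them as changed in these libraries, so their counts are not independent evidence of direction. They summed to 0.532 to 27.8 CPM in naïve libraries, highest in library 7. In mimic libraries they summed to 0 to 0.279 CPM, with both at 0 in mimic library 6. The high sum in naïve library 7 was mostly FOLR1, at 26.8 CPM. SLC6A13 had its naïve maximum, 13.1 CPM, in another library. The part of these markers in the high SOCS3, STAT3 and IL2RG of naïve library 7 was not tested. Markers of lymphocytes, where IL2RG is best known, and of astrocytes and endothelium were not analysed here because their genes carry no name in the sources used.

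**Figure D5:**
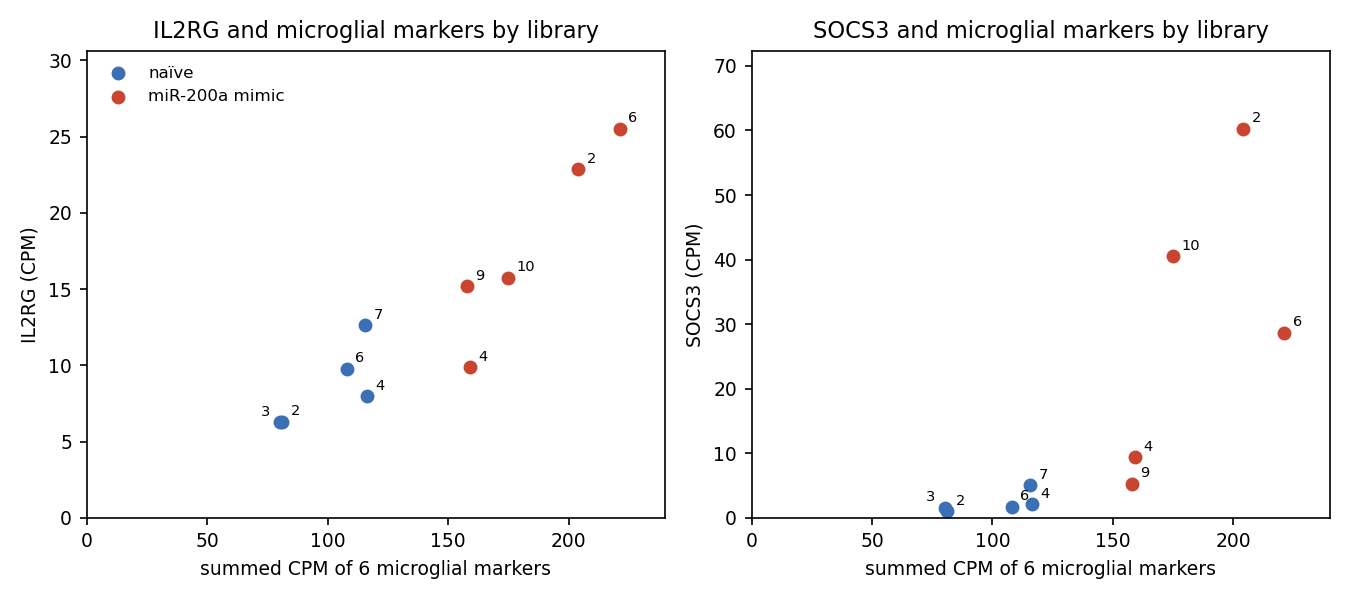
Level of IL2RG (left) and SOCS3 (right) in CPM against the summed CPM of 6 microglial markers in each library, with naïve libraries in blue and mimic libraries in red and the library number beside each point. IL2RG is highest in mimic libraries 2 and 6, where the markers sum to 204 and 221 CPM. SOCS3 in mimic libraries 4 and 9 (159 and 158 CPM of markers) is 9.37 and 5.30 CPM. The sum includes C1QC and C1QA, the genes most like IL2RG in these libraries, and SPI1, the gene most like SOCS3.

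The rest of the pathway could be followed only through 4 target genes. Of 73 other ligands, receptors, kinases, factors, inhibitors and targets of JAK-STAT signaling that were looked for, FOS, CCND1, IRF1 and OASL had a name in the sources used here, and no ligand, other receptor, Janus kinase, other STAT or other SOCS gene did. edgeR's quasi-likelihood test called 0 of these 4 targets (0.14% of all genes as higher), 3 had an unadjusted p under 0.05 (7.45% of all genes), DESeq2 called 2 as higher (0.419% of all genes), and their median log2 fold change was 0.69 where that of all genes was near 0. All 4 have a name because the study listed them in its supplementary tables, so their share is not independent evidence of a direction.

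IRF1, an interferon regulatory factor and a classical STAT target, averaged 6.67 ± 1.23 CPM in naïve and 11.0 ± 1.83 CPM in mimic libraries (SD, n = 5 each). Its groups did not overlap, and 1.09% of all genes had mimic libraries all above the naïve ones. The log2 fold change of IRF1 was 0.73 (SE 0.20) with an adjusted p of 0.343 by edgeR. FOS, an immediate early gene, averaged 14.5 ± 3.08 and 23.1 ± 0.859 CPM (SD, n = 5 each), also without overlap, with a log2 fold change of 0.66 (SE 0.16) and an adjusted p of 0.225 by edgeR. The mimic libraries were close together for FOS, from 21.9 to 24.2 CPM, and did not follow the wide spread of SOCS3. OASL, an interferon-induced gene, held 16.2, 16.9, 9.49, 5.99 and 29.2 CPM in mimic libraries 2, 4, 6, 9 and 10. Naïve libraries held 4.04 to 6.64 CPM of it. Its log2 fold change was 1.52 (SE 0.36) with an adjusted p of 0.180 by edgeR. Mimic library 9 was the lowest of its group for OASL as for SOCS3. Mimic library 4 was the second highest for OASL but the second lowest for SOCS3 (9.37 CPM). CCND1, the gene of cyclin D1, averaged 23.9 ± 6.38 and 24.6 ± 3.83 CPM (SD, n = 5 each), a log2 fold change of 0.02.

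The study placed the 4 genes in a group for interleukin-4 and interleukin-13 signaling with FOS, HSPA8 and HSP90B1. The group was chosen on these samples, and its counts are not independent evidence of direction. edgeR's quasi-likelihood test called none of the 7 (0.14% of all genes as higher) and all 7 had an unadjusted p under 0.05 (7.45% of all genes). DESeq2 called 5 as higher (0.419% of all genes), 5 had mimic libraries all above the naïve ones (1.09% of all genes), and the median log2 fold change was 0.78. HSPA8 and HSP90B1, which encode chaperones, had log2 fold changes of 0.34 (SE 0.10) and 0.43 (SE 0.12), with adjusted p of 0.428 and 0.392 by edgeR, smaller than those of the 4 genes.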

How the data were processed

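Per the labels and the paper's methods, the authors made bulk MARS-seq libraries from PO/AH RNA, used cutadapt for trimming, STAR for alignment to gene 3′ ends of the build galGal5 and HTSeq for counting, removed UMI duplicates within each gene and adjusted the UMI counts for saturation. The sources used here name no versions. The analysis started from the deposited counts per gene and library. The 10 other deposited per-sample columns and the columns of the authors' own comparison (fold changes and p-values) were not used. Groups were taken from the condition in each column's name.

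Of 11324 genes, 8585 passed filterByExpr (minimum count 10). They were tested in R 4.3.3 with edgeR 4.0.16 (TMM, robust quasi-likelihood test, two-sided, Benjamini-Hochberg adjustment), with DESeq2 1.42.0 and limma 3.58.1 (voom) as alternatives. The SE printed for edgeR was derived from its test, as the absolute log2 fold change divided by the square root of the test statistic. The common biological coefficient of variation was 21.2%. The scripts were tested on simulated data. Other alternatives were RLE and upper-quartile factors, no filter, a minimum count of 30, other scales for the correlations and fits without each library in turn. After seeing the data, DESeq2 on every gene and edgeR's likelihood ratio test were added.

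Gene names come from the study's supplementary gene lists, and 137 of 11324 identifiers had one. The members and all lists were chosen with earlier results of these data known. The genes named are the 4 members, the other JAK-STAT genes with a name that were called or had groups without overlap, the 5 named genes most like each member, and markers that moved with them. CCND1, OASL and HSP90B1 were named outside this rule, after their values were seen. The markers RBFOX3, SCG3, FOLR1, SLC6A13 and TREM2 were also named outside it, since they were lower on average in mimic libraries. No sequences or coordinates of these genes were used here.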

Additional observations from a re-analysis of the deposited data

Results flagged for a closer look

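SOCS3 in naïve library 7, at 5.05 CPM, stood apart from the other 4 naïve libraries, of which the next highest held 2.13 CPM. The gap to that library was 0.736 of the whole range of the group, above Dixon's 95% critical value for 5 samples. It was the only such value among 8 tests of the 4 genes in the 2 groups, and chance gives about 1 in 20 groups. The level rests on 10 UMIs, with a 95% Poisson interval of 2.42 to 9.29 CPM, in the library with the smallest total.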

How the results depend on the processing

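All 4 genes kept their direction in every alternative. The log2 fold changes passed the threshold with DESeq2 at the study's settings on the filtered genes (SOCS3 3.70, STAT3 0.78, STAT6 0.86, IL2RG 1.09). They also passed with DESeq2 on every gene (3.71, 0.79, 0.87 and 1.10) and with edgeR's likelihood ratio test (3.71, 0.78, 0.86 and 1.09). SOCS3 had no value with a minimum count of 30, which removed it. Genes called as higher numbered 12 in the edgeR quasi-likelihood test, 36 with DESeq2 at the study's settings, 39 on every gene, 37 with the likelihood ratio test and 7 with a minimum count of 30, and genes called as lower numbered 2, 5, 5, 4 and 2. Why the tests differ was not tested. Leaving out 1 library at a time gave log2 fold changes of 3.38 to 4.15 for SOCS3, 0.68 to 0.91 for STAT3, 0.76 to 0.95 for STAT6 and 0.93 to 1.25 for IL2RG, and 6 to 18 genes called as higher (6 without naïve library 2, 18 without mimic library 4) and 2 as lower. The centred correlation of SOCS3 ranged from 0.521 to 0.847 with STAT3, from 0.616 to 0.808 with IL2RG and from −0.351 to 0.452 with STAT6, where it reversed without mimic library 2 (−0.351) or 4 (−0.155). The difference in the log2 ratio of SOCS3 to STAT3 was 2.21 to 2.96. No paired analysis was possible because column numbers in the counts differ from the replicate numbers of the labels. Depth limits SOCS3 most, with 6 to 10 UMIs in each naïve library.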
